A study of Arabidopsis thaliana with 6 samples.

Results

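The cytosolic and mitochondrial heat shock system of salt-stressed Arabidopsis was followed through 10 loci, namely HSFA2, HSP101, HSP90.1, HSP70-4, the small heat shock proteins HSP23.5, HSP17.4, HSP17.6C, HSP17.6A and HSP17.6II, and the DnaJ gene AT1G71000. They were chosen as a list of loci, each to be read from a probe set that names this 1 gene in the platform annotation or in a supplementary list of the study. Such a probe set was found for 9 of the 10 loci, out of 14276 genes measured in all. HSP90.1, the heat-inducible cytosolic HSP90, had none and was not analysed here.

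The material was wild-type Arabidopsis thaliana Col-0, labelled as whole rosette tissue from plants 28 days old, the age at which the study began the treatment. All plants were raised in hydroponic culture. The control group received medium to which no NaCl had been added, and the salt group received 150 mM NaCl through the roots for 4 days, a treatment that the study used to bring on leaf senescence. Each group had 3 ATH1 arrays, described in the methods as independent biological replications, and all values are deposited log2 signals after robust multiarray averaging (RMA), so that a difference of 1 is 2-fold. RNA came from whole shoots, so a change in the cells that make up the tissue and a change of RNA per cell cannot be told apart.

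Heat shock proteins are molecular chaperones, which bind unfolded proteins, keep them from aggregating and help them to refold. Their genes are switched on by heat shock transcription factors (HSFs) that bind repeated heat shock elements in the promoters. In Arabidopsis, HSFA1 factors start this response, and HSFA2 is itself induced by heat and prolongs it. Heat shock genes are best known from heat stress, and members of the system also respond to high light, H2O2, salt and osmotic stress.

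In salt-treated rosettes, 4 of the 9 measured loci were up-regulated and none was down-regulated. HSP70-4, HSP23.5 and HSFA2 stood 3.08-fold to 3.40-fold above control, and HSP17.4 stood 2.59-fold above it. The remaining 5, among them 3 small HSPs, the disaggregase HSP101 and the DnaJ gene, had higher means under salt but did not pass the test. The call was an adjusted p under 0.05 from limma with Benjamini-Hochberg adjustment over all 14276 genes. Of all genes, 11.4% were called higher and 12.3% were called lower.

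The background depends on how a probe set got its name. Of the 9 loci, 6 were named solely through the supplementary list, which holds genes that responded to H2O2 in other plants of the study, and 36.9% of all genes named in that way were called higher. Of these 6 loci, HSP70-4, HSFA2 and HSP17.4 were called, which is 3 of 6. HSP23.5, HSP17.6C and AT1G71000 were named through the platform annotation, in which 9.65% of genes were called higher, and HSP23.5 alone of these 3 was called. The loci were picked with earlier results of these arrays known, so their counts are a description.

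The transcription factor is given first. HSFA2 had signals of 4.48, 4.69 and 4.59 on the 3 control arrays and 6.73, 6.09 and 5.81 on the 3 salt arrays. The groups did not overlap, and the lowest salt array lay more than 1 log2 unit above the highest control array. The mean rose from 4.59 ± 0.11 to 6.21 ± 0.47 (SD, n = 3 each), a difference of 1.62 with an SE of 0.22, a 95% interval from 1.10 to 2.15 and an adjusted p of 0.0040 in limma. It remained called with any 1 array left out, with differences between 1.36 and 1.82.

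HSP70-4 (AT3G12580) is a stress-inducible cytosolic HSP70, an ATP-driven chaperone that works with J-domain proteins. Its signals were 6.52, 6.52 and 6.69 on control arrays and 9.09, 7.81 and 8.13 on salt arrays. All salt arrays lay above all control arrays, and the first salt array was almost 1 log2 unit above the next. The difference of 1.77 (SE 0.30, 95% interval 1.05 to 2.48, adjusted p = 0.0085 in limma) was the largest of the 9. It remained called with any 1 array left out and ranged from 1.39 to 2.03.

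HSP23.5 (AT5G51440) is a small HSP of mitochondria. Small HSPs are chaperones without ATPase activity that hold unfolded proteins until HSP70 and HSP101 take over. HSP23.5 gave 6.70, 6.43 and 6.21 in control and 8.54, 7.68 and 8.16 under salt. The groups were about 1 log2 unit apart at their nearest arrays, and the difference was 1.68 (SE 0.23, 95% interval 1.14 to 2.22, adjusted p = 0.0038 in limma). With any 1 array left out it was between 1.47 and 1.90 and still called.

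HSP17.4 (AT3G46230) belongs to the cytosolic class I small HSPs. Its signals were 4.87, 5.01 and 4.64 in control and 6.82, 5.64 and 6.18 under salt. The groups did not overlap, but the 3 salt arrays spread over more than 1 log2 unit. The difference was 1.37 (SE 0.28, 95% interval 0.71 to 2.03, adjusted p = 0.0149 in limma). This call was lost when any 1 control array was left out, with adjusted p of 0.058, 0.051 and 0.054 without the first, the second and the third, although the difference kept its direction at between 1.07 and 1.66 over all 6 omissions.

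**Figure D1:**
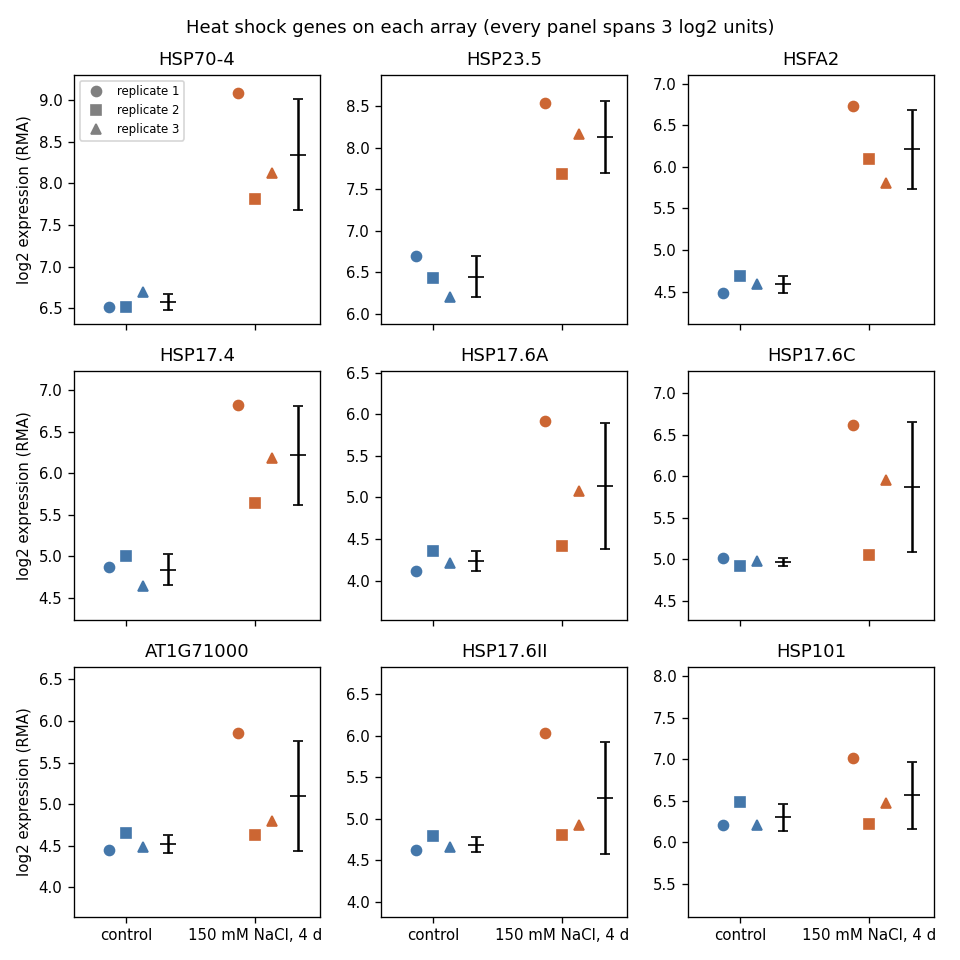
RMA log2 signal (vertical axis) of the 9 measured loci in the 3 control and 3 salt arrays, 1 panel per locus, with a symbol for each replicate and the group mean ± SD (n = 3) beside it. HSP70-4, HSP23.5, HSFA2 and HSP17.4 have all salt points well above the control points, whereas in the other loci salt replicate 2 lies close to or among the control points.

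The other class I gene, HSP17.6C (AT1G53540), gave 5.01, 4.92 and 4.98 in control and 6.61, 5.05 and 5.95 under salt. Salt replicate 2 stood only just above the control arrays, whereas the other salt arrays were well above them. The difference was 0.90 (SE 0.35, 95% interval 0.07 to 1.73) with an adjusted p of 0.109 in limma, so it was not called. Leaving out salt replicate 2 brought it to 1.31 with an adjusted p of 0.0076, and leaving out salt replicate 1 brought it to 0.53.

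HSP17.6A (AT5G12030) and HSP17.6II (AT5G12020) are the cytosolic class II small HSPs and are neighbouring genes on chromosome 5. HSP17.6A had signals of 4.12, 4.36 and 4.21 in control and 5.92, 4.41 and 5.08 under salt, and the difference of 0.91 (SE 0.34, 95% interval 0.10 to 1.71, adjusted p = 0.101 in limma) was not called. HSP17.6II had 4.62, 4.79 and 4.66 in control and 6.03, 4.81 and 4.92 under salt, with a difference of 0.56 (SE 0.31, 95% interval -0.16 to 1.28, adjusted p = 0.233). In both genes salt replicate 1 was high and salt replicate 2 was barely above the highest control array. Without salt replicate 2 the difference of HSP17.6A was 1.27 and was called (adjusted p = 0.0169 in limma), whereas HSP17.6II reached 0.79 and was not (adjusted p = 0.123). Without salt replicate 1 the differences were 0.52 and 0.17.

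HSP101 (AT1G74310) is the cytosolic ClpB-type disaggregase that pulls proteins out of aggregates and is required for acquired thermotolerance. Its signals were 6.21, 6.49 and 6.21 in control and 7.01, 6.22 and 6.48 under salt. Only salt replicate 1 stood above all control arrays, so the groups overlapped. The difference was 0.27 (SE 0.20, 95% interval -0.21 to 0.74, adjusted p = 0.393 in limma), and it was 0.05 without salt replicate 1. The interval leaves room for a rise of up to 0.74, that is, for less than a 2-fold change.

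AT1G71000 encodes a protein with a J domain, the part of DnaJ-type proteins that stimulates the ATPase of HSP70. It gave 4.45, 4.65 and 4.48 in control and 5.85, 4.63 and 4.80 under salt. Salt replicate 2 lay below the highest control array and salt replicate 1 stood more than 1 log2 unit above every other array. The difference of 0.57 (SE 0.30, 95% interval -0.14 to 1.28, adjusted p = 0.223 in limma) was not called, and it was 0.19 without salt replicate 1.

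**Figure D2:**
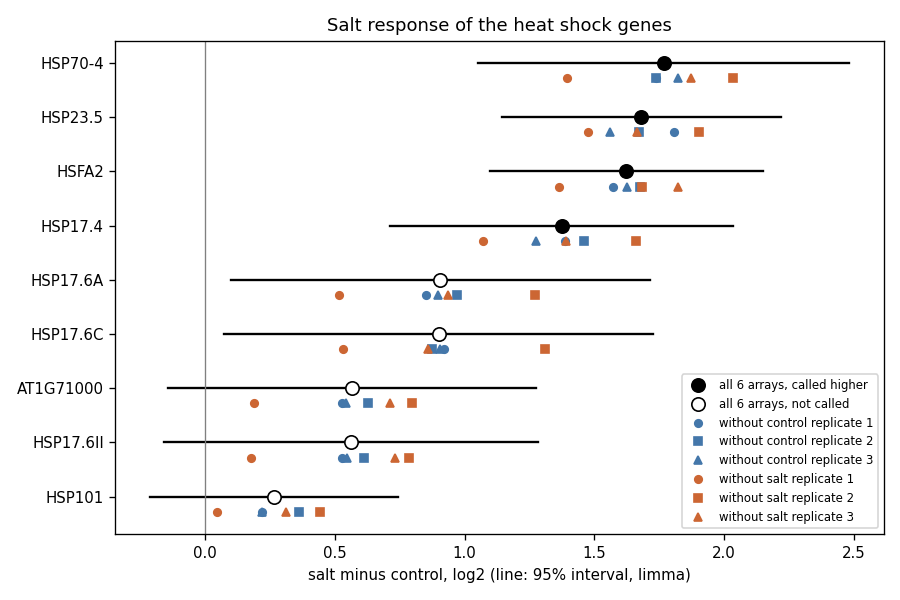
Salt minus control difference (log2, horizontal axis) of each measured locus with its 95% interval from limma (large circles, filled where called, and lines), and below it the same difference after leaving out each of the 6 arrays in turn (small symbols). All 9 differences are above 0, and the intervals of AT1G71000, HSP17.6II and HSP101 include 0.

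Over the 9 loci the median difference was 0.91, against -0.03 over all genes. It was 1.14 in the 6 loci named through the supplementary list alone, against 0.29 over all genes named in that way, and 0.90 in the 3 named through the annotation, against -0.03. At least 2-fold higher means were found for 4 loci, the same 4 that were called, where 5.32% of all genes reached that size. By naming, these were 3 of the 6 against 28.4% of all genes named through the list alone, and 1 of the 3 against 3.72% of those named through the annotation. All 3 salt arrays were above all 3 control arrays in 7 loci, where 18.9% of all genes showed this. By naming, these were 5 of the 6 against 44.1%, and 2 of the 3 against 17.2%. An unadjusted p under 0.05 in limma was found for 6 loci, which adds HSP17.6A and HSP17.6C to the 4 called, where 16.8% of all genes were higher at that level. By naming, these were 4 of the 6 against 44.7%, and 2 of the 3 against 14.9%. A permutation test of 3 against 3 arrays can reach no exact two-sided p under 0.1, so no such test was used for single genes.

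The loci differed more among the salt arrays than among the control arrays. The median range over the 3 salt arrays was 1.22 on the log2 scale, against 0.21 over the 3 control arrays. Control means of 6 of the 9 loci lay under the 30th percentile of control means, and RMA compresses differences of such dim probe sets. How far this narrowed the control ranges was not tested. For all genes these medians were 0.30 and 0.16, and for all genes named through the supplementary list alone the salt median was 0.51. The ranges over the salt arrays ran from 0.79 in HSP101 to 1.56 in HSP17.6C, and among the 4 called loci from 0.86 to 1.28. Genes called higher had medians of 0.45 and 0.22, but a gene with a wide spread passes the test less easily, and 5 of the 9 loci had not passed it.

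The order of the salt arrays was alike in nearly all of the loci. Salt replicate 1 had the highest signal in 9 of 9, which was so in 36.4% of all genes and in 66.4% of the genes called higher. In 8 of the 9 loci replicate 3 came next and replicate 2 last, an order found in 15.6% of all genes and in 29.6% of those called higher. HSFA2 was the exception, with replicate 2 above replicate 3. The median distance from the control mean was 1.69 in salt replicate 1, 0.18 in salt replicate 2 and 0.98 in salt replicate 3. In all genes called higher these distances were 1.06, 0.75 and 0.79. Those genes were selected by the test, which 5 of the 9 loci did not pass, so the 2 sets are not alike. Salt replicate 2 lay above the highest control array in 100% of the genes called higher. Related classes outside the list, described further on, were unlike each other in this order. Replicate 1 was highest in 5 of 6 HSP70 genes, with the full order in 4 of them. It was also highest in 3 of 3 genes of the endoplasmic reticulum folding class, with the full order in none. Among small HSPs it was highest in 3 of 10, with the full order in 1.

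**Figure D3:**
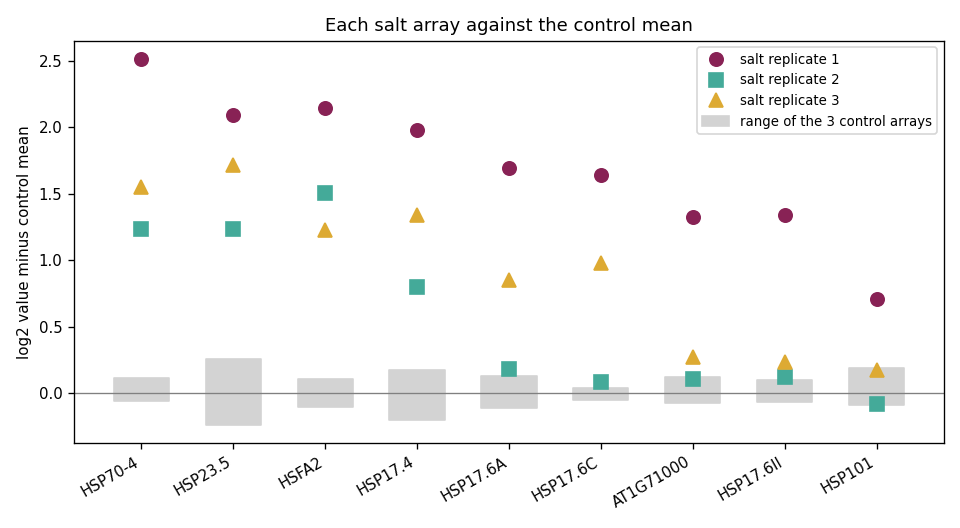
Distance of each salt array from the control mean (log2, vertical axis) for each of the 9 loci along the horizontal axis, with a symbol for each salt replicate and a grey box for the range of the 3 control arrays. Replicate 1 is highest in all 9 loci and replicate 2 is lowest in 8, the exception being HSFA2.

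Other signals moved with the same arrays. The probe set for 25S ribosomal RNA, a control signal of the platform, was 7.16, 7.20 and 7.84 on control arrays and 10.24, 9.05 and 9.48 on salt arrays, in the same order among the salt arrays as most of the heat shock loci. The 3′ minus 5′ difference of the actin control probe sets, a sign of RNA integrity or of how far labelling ran, was 3.11 to 3.23 in control and 3.36, 3.47 and 3.66 under salt, an order that the loci did not share. The same difference for GAPDH moved the other way, from 0.44, 0.45 and 0.39 in control to 0.37, 0.29 and 0.07 under salt. The part of these signals in the results was not tested. Over all 22746 probe sets salt replicate 1 correlated at 0.983 and 0.980 with the other salt arrays, which correlated at 0.988 with each other. Control arrays correlated at 0.993 to 0.997. With the control arrays, salt replicate 1 correlated at 0.930 to 0.939 and the other salt arrays at 0.961 to 0.970.

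Tissue and reference genes gave the following picture. Of the leaf markers, only Rubisco activase (RCA) was measured, with signals of 13.54 to 13.62 in control and 13.20 to 13.40 under salt. Its difference was -0.26, with all salt arrays below all control arrays, and it was not called (adjusted p = 0.072 in limma). Of 4 root markers, 3 were measured (PYK10, CASP1 and EXPA7), none of them was called, and their differences were -0.80, -0.09 and -0.16. PYK10 came near the threshold (adjusted p = 0.057 in limma), with signals of 9.04, 9.42 and 9.34 in control and 8.35, 8.02 and 9.02 under salt. The 4 flower and seed markers had no named probe set. The reference genes TIP41 and SAND differed by 0.10 and -0.10 and were not called in limma (adjusted p = 0.484 and 0.572).

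The other genes of the system were read from 9 classes with 113 loci outside the 10, of which 49 were measured. In these, 17 were called higher and 4 lower, where 11.4% and 12.3% of all genes were. The median difference was 0.28, against -0.03 over all genes. Of the 49, 20 were named through the supplementary list alone and 8 of these 20 were called higher, against the 36.9% given above for all genes named in that way. Of the 29 named through the annotation, 9 were called higher and 4 lower, against 9.65% and 12.3% of all genes named in that way. No HSP90 and no chaperonin of the HSP60 or HSP10 type was among the measured genes.

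Among the HSFs, 5 of 20 were measured and 4 were called higher. All 5 were named through the supplementary list alone, where 36.9% of all genes named in that way were called higher. HSFA4A, a class A activator linked to oxidative stress, was 8.43, 8.08 and 8.80 in control and 10.30, 9.90 and 9.69 under salt, with a difference of 1.53 (SE 0.22, adjusted p = 0.0046 in limma), beside 1.62 for HSFA2. HSFB1, a class B repressor, and HSFA8 rose by 0.92 and 0.71. The fourth was HSFB2B with 0.54, and HSFA3, which acts below DREB2A in the heat response, was at -0.11 (adjusted p = 0.602). The calls of HSFA4A and HSFB1 held with any 1 array left out, whereas that of HSFA8 was lost without control replicate 1, salt replicate 1 or salt replicate 3 (adjusted p up to 0.071 in limma) and that of HSFB2B without control replicate 2 or 3 or salt replicate 1 or 3 (adjusted p up to 0.103).

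Of 13 small HSPs outside the list, 10 were measured. None of these was called higher and 3 were called lower, against 11.4% and 12.3% of all genes, and the median difference was 0.20. AT4G21870 fell by 1.09 (adjusted p = 0.041 in limma), the class III gene HSP17.4-CIII fell by 0.90 (adjusted p = 0.036) and AT5G54660 fell by 0.57 (adjusted p = 0.011). Each of these 3 calls was lost without control replicate 1 and also without control replicate 2, that of AT4G21870 also without control replicate 3 or salt replicate 2, and that of HSP17.4-CIII also without salt replicate 1 or 3. HSP17.6B-CI, a class I gene singled out after its values were seen because it came near the threshold, gave 6.06, 6.44 and 5.88 in control and 7.45, 6.43 and 7.58 under salt. Its difference was 1.03 with an adjusted p of 0.053, and, as in HSP17.6C and HSP17.6A, salt replicate 2 lay at the level of the control arrays and the call was gained without it (adjusted p = 0.0047 in limma). It was also called with dim genes left out by the filter at the 30th percentile of mean signal (adjusted p = 0.041) and with all probe sets counted (adjusted p = 0.049). It was not called when any array other than salt replicate 2 was left out (adjusted p up to 0.152 in limma). Nor was it called with the replicate number as a block (0.104) or under the remaining alternatives (0.0501 to 0.0597).

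In the HSP70 class, 6 of 17 were measured, 2 of them named through the supplementary list alone, and the median difference was 0.05. Against 11.4% of all genes, 2 of the 6 were called higher. These were the cytosolic HSC70-2 with 0.91 (adjusted p = 0.016 in limma) and AT3G09440 with 0.77 (adjusted p = 0.0041), beside 1.77 for HSP70-4, and whether these differences are unequal was not tested. The call of HSC70-2 was lost without control replicate 1 and without control replicate 2. AT1G11660, an HSP110-type relative, had the next largest difference, -0.21, and was not called. The single measured gene of the HSP100/Clp class was that of the mitochondrial CLPB4, with a difference of 0.22 (adjusted p = 0.440 in limma), beside 0.27 for HSP101.

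DnaJ-type genes were called higher in 4 of 12 measured, of 19 listed, and none was called lower. Of the 12, 5 were named through the supplementary list alone. The share called higher was 11.4% over all genes and 36.9% over all those named in that way. J11, which encodes a small chloroplast J-domain protein, had 11.45, 11.30 and 11.65 in control and 12.45, 12.46 and 12.52 under salt. The difference was 1.01 (adjusted p = 0.0015 in limma), with salt arrays that lay within 0.07 of each other. AT2G20560 rose by 0.89 and the mitochondrial ATJ1 by 0.61, and the fourth was AT3G14200 with 0.41. The calls of J11 and ATJ1 held with any 1 array left out. AT2G20560 lost its call without control replicate 2 (adjusted p = 0.057) and AT3G14200 without any 1 of the control arrays (adjusted p up to 0.059 in limma).

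Of 17 listed partners and targets of the heat response, 12 were measured and 5 were called higher, and none was called lower. The supplementary list alone named 5 of the 12. Over all genes 11.4% were called higher, and over all those named in that way 36.9%. DREB2A, a transcription factor of drought and heat responses that activates HSFA3, had 5.79, 5.79 and 5.98 in control and 10.45, 9.43 and 8.52 under salt. Its difference of 3.61 (SE 0.43, adjusted p = 0.0023 in limma) compares with at most 1.77 for the heat shock loci. The salt arrays of DREB2A stood in the same order as those of HSFA2, an order found in 19.9% of all genes and in 35.9% of those called higher. FES1A, which exchanges the nucleotide of HSP70, rose by 1.15 and BOB1, a NudC-domain chaperone, by 0.67, and both calls held with any 1 array left out, as did that of DREB2A. The ubiquitin ligase CHIP (0.50) and the HSP70 co-chaperone BAG6 (0.40) completed the 5, and both calls were lost when any 1 array other than salt replicate 2 was left out, and also under median centring (adjusted p = 0.057 and 0.055 in limma). GOLS1, a galactinol synthase known as a target of HSFA2 and named here after its values were seen, had a difference of 2.08 but was not called (adjusted p = 0.052), with control signals of 6.25, 6.52 and 8.33 and salt signals of 8.92, 10.06 and 8.36. It lay near the threshold and was called under median centring (adjusted p = 0.049 in limma), with the filter (0.040), with all probe sets (0.049) and without control replicate 3 (0.021). It was not called when any other array was left out (adjusted p up to 0.169 in limma). Nor was it called with the replicate number as a block (0.097), quantile normalization (0.056) or eBayes with trend and robust estimation (0.062).

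In the folding class of the endoplasmic reticulum, 3 of 10 genes were measured and all 3 passed, but they include transcription factors. All 3 were named through the annotation, in which 9.65% of genes were called higher and 12.3% lower. Measured genes for endoplasmic reticulum proteins in the other classes were not called. These were ERDJ3A (0.35), ERDJ2A (0.24), ERDJ3B (-0.22), HSP22.0 (0.02) and the HSP70 gene AT4G16660 (0). BZIP60 and BZIP28, the transcription factors of the unfolded protein response, rose by 1.10 (adjusted p = 0.015 in limma) and 0.66 (adjusted p = 0.026). The calreticulin CRT2 fell by 0.50 (adjusted p = 0.026). BZIP60 lost its call without control replicate 1 and without control replicate 2, BZIP28 without any 1 of the control arrays, and CRT2 without any 1 array other than salt replicate 1.

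**Figure D4:**
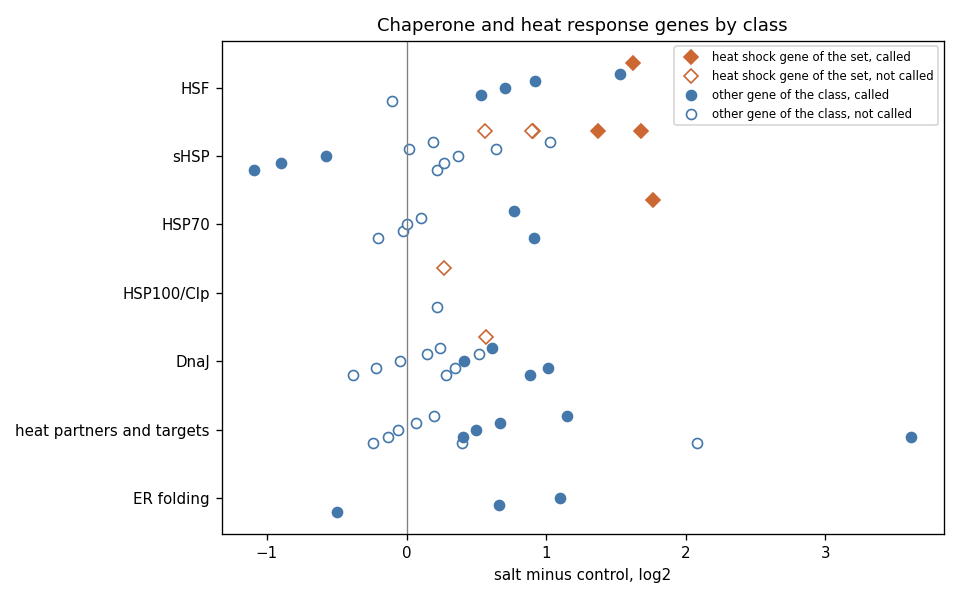
Salt minus control difference (log2, horizontal axis) of every measured gene in each class of chaperones and heat response genes, with the 9 loci as diamonds, genes called at an adjusted p under 0.05 filled and genes not called open (the diamonds of HSP17.6A and HSP17.6C overlap). DREB2A is farthest to the right at 3.61, and the 3 small HSPs called lower lie between -1.09 and -0.57.

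The genes whose signals over the 6 arrays were most like those of HSFA2 were found by Pearson's r among 9992 genes with a mean above the 30th percentile. They were AT1G25400 with r = 0.999, the NAC factor RD26 (AT4G27410) with 0.998, and AT1G14330, AT1G48650 and AT3G10590 with 0.997 each. RD26 had signals of 8.02, 8.17 and 8.03 in control and 11.15, 10.20 and 9.98 under salt. Its salt arrays stood in the order of HSFA2, which the choice by r favours. With 2 groups of 3 arrays, any gene that separates the groups correlates with HSFA2, and 733 of the genes compared reached an r of 0.95. Among the heat shock loci, HSP70-4 had 0.97, HSP23.5 and HSP17.4 had 0.94, and the others lay between 0.67 for HSP101 and 0.84 for HSP17.6A.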

How the data were processed

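RNA of whole rosettes was hybridized to Affymetrix ATH1 arrays, 3 from control and 3 from salt-treated plants. Values per probe set were deposited by the authors on the log2 scale after RMA and were used without further normalization. The submitters' processing notes also name GCRMA, and versions were not given in the sources used here. Background correction and summarization were not repeated. RMA draws the arrays to 1 common distribution, so that differences are relative to the other probe sets, and it compresses differences of dim probe sets. The number of arrays limits the precision.

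A single gene was given by the platform annotation for 13513 of 22746 probe sets, 503 with several genes were left unnamed, 921 were named through the study's list of H2O2-responsive genes alone, and 7809 had no name. Where both sources gave a gene, 1066 of 1072 had the same locus. Each of 14276 genes was read from its brightest probe set, by the mean of the 6 arrays. Each of the 9 loci had 1 probe set. Small HSPs of 1 class have similar sequences, and whether their probes bind transcripts of related genes was not tested. Coordinates and sequences were not used here.

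Salt minus control was fitted with lmFit and eBayes of limma 3.58.1 (R 4.3.3, statmod 1.5.0) over all genes, without a block, and adjusted by Benjamini-Hochberg. Calls were made at an adjusted p under 0.05, and 2-fold was a second criterion. The step was tested on simulated data. Tables and figures were made with Python 3.11.15, pandas 2.3.3, numpy 2.4.6 and matplotlib 3.10.9. The loci, the classes and the markers were chosen with earlier results of these data known. Named genes were all listed loci, in each class the 3 with the largest difference among those called (filled up with genes not called where fewer were), the 5 most like HSFA2, and the markers. Others complete a count of 5 or fewer or are marked as chosen after their values were seen. Alternatives were each array left out, the replicate number as a block, quantile normalization, median centring, a filter at the 30th percentile of mean signal, eBayes with trend and robust estimation, annotation names alone, and all probe sets. The qRT-PCR values of the study were not used here.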

Additional observations from a re-analysis of the deposited data

How the results depend on the processing

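No difference of the 9 loci changed sign under any alternative. Calls of the 4 up-regulated loci were kept under quantile normalization, median centring, eBayes with trend and robust estimation, and all probe sets. The filter at the 30th percentile left 6 of the 9 loci, without HSP17.6A, HSP17.6II and AT1G71000. It bears little on HSFA2, HSP17.4 and HSP17.6C, whose control means lay under the 30th percentile of control means and which passed it through their salt arrays. With annotation names alone, 3 loci were measured, 1 was called and 1 was at least 2-fold higher, because fewer probe sets had a name, and the classes outside the list then gave 9 called higher and 3 at least 2-fold higher. Over all genes, annotation names alone gave 497 at least 2-fold higher instead of 759. Counting all 22746 probe sets gave 2645 higher instead of 1629, 3145 lower instead of 1750, and 624 at least 2-fold lower instead of 383. These last counts are of probe sets, not genes.

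Leaving out each array in turn gave 3 to 6 of the 9 loci called higher, 0 called lower throughout, and 4 to 6 at least 2-fold higher, the 6 being without salt replicate 2. In the classes, 9 to 19 were called higher (10 without control replicate 1 and 9 without control replicate 2), 0 to 3 lower and 5 to 10 at least 2-fold higher. Over all genes, 837 to 1701 were called higher, 492 to 1891 lower, 653 to 839 at least 2-fold higher, and 215 to 536 at least 2-fold lower. The fewest lower calls were without control replicate 2 (492) and control replicate 1 (500), and the fewest at least 2-fold lower were without salt replicate 1 (215). The cause was not tested.

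The arrays share replicate numbers between groups, but deviations from the group means in same-numbered arrays correlated at -0.12, 0.05 and -0.14, so the numbers were not taken to pair the samples. With the replicate number as a block the same 4 loci were called higher and 0 lower, the classes gave 16 higher and 3 lower, with the calls of BZIP28 (adjusted p = 0.051 in limma) and CRT2 (0.057) lost, and all genes gave 1398 higher and 1345 lower.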
